A study of Mus musculus with 7 samples.

Results

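The 45 genes described here belong to the interferon response and to antigen presentation. They were taken by symbol from a list of interferon-stimulated and major histocompatibility complex (MHC) genes, chosen as a readout of the response to a viral vector. All 45 were found among the 35976 gene symbols counted, and 42 were among the 14412 genes that had enough counts to be tested. Mx1, Cxcl10 and Ciita had too few counts. The tested libraries were 3 sgNr2f2 libraries, from male C57BL/6J mice given an adeno-associated virus (AAV) with a guide RNA against Nr2f2 in the amygdala. They were compared with 4 sgRosa libraries, from mice of the same sex and strain given an AAV with a guide against the Rosa locus. In both groups Cas9 was driven by the hSyn promoter, a promoter active in neurons. Both groups were restrained in tubes for 7 days, then fear conditioned on 1 day and put through extinction on 3 days. Neurons were isolated with a magnetic kit, and each library was made from 5 ng of total RNA. An uninjected or unstressed group was not analysed here, so levels of the interferon genes cannot be set against cells without vector. Whether each library is a single animal or pooled animals is not stated in the labels, so the p-values reflect variation among libraries that may be partly technical.

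Cells detect foreign nucleic acid with cytosolic and endosomal sensors, which lead to the secretion of type I interferon. The interferon receptor then activates a complex that holds STAT2 and IRF9 and binds interferon-stimulated response elements (ISREs) in promoters to switch on antiviral effectors. Interferon gamma acts at gamma-activated sites (GAS) and raises the GTPases, the immunoproteasome and MHC class I. In the brain, MHC class I is found on endothelial cells and glia and at lower levels on neurons, while MHC class II is a property of microglia and other antigen-presenting cells.

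No difference between the 2 guides was detected in these genes. None of the 42 tested genes passed an adjusted p of 0.05 in edgeR's quasi-likelihood test, and no gene among all 14412 tested did (0%). DESeq2 called 7 of 14020 genes (0.0499%), and limma-voom none, and no member was among them. None of the 42 had an unadjusted p under 0.05 in this edgeR fit, against 5% of all genes tested. At that threshold DESeq2 had 2 members lower, among 1094 of 14412 genes. limma-voom with quality weights had 1 higher and 2 lower, among 2112 genes. edgeR with library totals alone, with a replicate block or with no filter had 1 lower each, among 748, 913 and 1648 genes. None of the 42 had groups that did not overlap, against 8.31% of all genes. The fitted log2 fold changes of sgNr2f2 over sgRosa were above 0 for 14 genes and below 0 for 28, with a median of -0.09, beside 6317 above and 8095 below and a median of -0.11 over all genes tested. This split followed single libraries: it was 25 above and 15 below without sgRosa replicate 1, and 6 above and 37 below without sgNr2f2 replicate 2, and limma-voom gave 21 and 21. Levels are given as CPM, counts per library scaled to a common total with TMM factors (trimmed mean of M-values). For the members, the median SD within groups was 0.74 on the log2(CPM + 0.5) scale and the median absolute difference between group means 0.36. Over all genes tested these were 0.69 and 0.40, so the same order held there. An SD of single libraries and a difference of means are unlike measures. The difference exceeded the SD within groups in 4 of 42 members (9.52%) and in 25.8% of all genes tested.

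**Figure D1:**
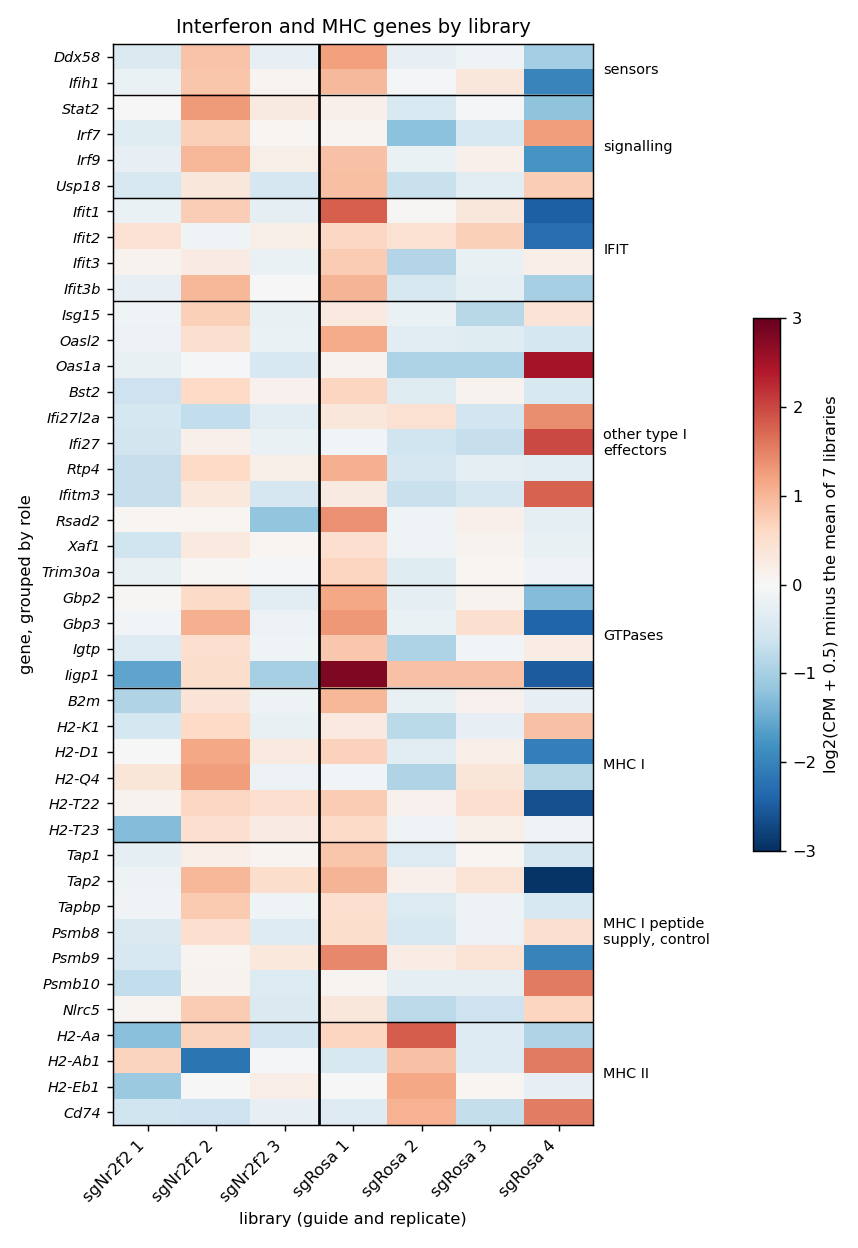
Level of each of the 42 tested genes (rows, grouped by role) in each library, as log2(CPM + 0.5) minus the mean of the 7 libraries. Columns are sgNr2f2 replicates 1 to 3 and then sgRosa replicates 1 to 4. sgNr2f2 replicate 2 and sgRosa replicate 1 are high across most rows above the MHC class II genes, and sgRosa replicate 4 holds dark cells of both colours.

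Total counts were 16497269 to 20928677 in the sgNr2f2 libraries and 6266897 to 19788953 in the sgRosa libraries, with the lowest in sgRosa replicate 4. Nr2f2 itself had 196, 214 and 191 counts in the sgNr2f2 libraries, against 422, 305, 166 and 96 in the sgRosa libraries. Its log2 fold change of -0.36 (SE 0.37) did not pass in edgeR (adjusted p = 0.905), and counts over the whole gene do not measure small edits within it. Neuron markers were present in all libraries, at a summed 375 to 496 CPM in sgNr2f2 and 384 to 1308 CPM in sgRosa libraries. Oligodendrocyte markers summed to 165816 to 408057 CPM in sgNr2f2 and 22954 to 346566 CPM in sgRosa libraries, so the libraries hold RNA of other cells. In bulk samples such as these, fewer cells of a type and less RNA per cell cannot be told apart. sgRosa replicate 4 stood apart from the rest, with the lowest oligodendrocyte sum and 31591 CPM of erythroid markers against 1049 to 3063 CPM in the other 6 libraries. Where a fold change or an order rests on it, the value without it is also given.

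Promoter sequence was looked up in RefSeq (GRCm38.p6, which is the mm10 build of the counts) for windows from 250 bases before to 50 bases after each start site. Windows were given for 34 of the 45 genes. On either strand, the ISRE letters GAAANNGAAA stood in the window of 19 of these 34 genes (55.9%), against 3.99% of all 27025 genes with a window. The GAS letters TTCNNNGAA stood in 6 of 34 (17.6%), against 9.55% of all genes. The genes with an ISRE match included both RNA sensors, 3 of 4 IFIT genes, 6 of 8 other type I effectors with a window, 3 of 3 GTPases with a window and 3 of 6 MHC class I molecules. None of the 5 peptide supply genes with a window and neither of the 2 MHC class II genes with a window had one. The genes were listed as interferon-stimulated or MHC genes, so a high share of ISRE letters follows from that choice and is no result of these libraries. A match is a description of the letters, not a measured site. The stretches around the matches are shown for 8 genes, to show how the matches are arranged in different role groups. Each stretch runs 5′ to 3′ on the gene's strand, with the matches to either strand of the ISRE in capitals. The TTTC forms are matches on the opposite strand.
Ifit1, chr19:34640765-34640833, + strand: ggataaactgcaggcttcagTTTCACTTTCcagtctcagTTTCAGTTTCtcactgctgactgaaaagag
Ifit3, chr19:34583353-34583436, + strand: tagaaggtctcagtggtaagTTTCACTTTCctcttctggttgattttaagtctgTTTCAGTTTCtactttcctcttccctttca
Ifit3b, chr19:34607749-34607832, + strand: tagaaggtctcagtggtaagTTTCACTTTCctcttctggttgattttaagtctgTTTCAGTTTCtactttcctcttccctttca
Isg15, chr4:156200855-156200916, − strand: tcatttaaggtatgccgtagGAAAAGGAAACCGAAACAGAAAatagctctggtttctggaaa
Oas1a, chr5:120907526-120907565, − strand: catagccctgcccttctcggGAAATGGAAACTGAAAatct
Gbp3, chr3:142559979-142560034, + strand: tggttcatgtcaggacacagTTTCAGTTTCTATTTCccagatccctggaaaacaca
B2m, chr2:122147528-122147577, + strand: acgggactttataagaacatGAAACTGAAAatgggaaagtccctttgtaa
H2-T23, chr17:36032796-36032845, − strand: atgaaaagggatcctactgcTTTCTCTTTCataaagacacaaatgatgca
Ifit1, Ifit3 and Ifit3b each hold a pair of separate matches, while Isg15, Oas1a and Gbp3 hold overlapping ones in tandem and B2m and H2-T23 a single one. The stretches of Ifit3 and Ifit3b were identical at all 84 bases.

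The cytosolic RNA sensors Ifih1 (MDA5) and Ddx58 (RIG-I) were both expressed. Ifih1 (chromosome 2) had 20.8, 43.1 and 25.3 CPM in the sgNr2f2 libraries, against 47.8, 23, 30.5 and 5.72 CPM in the sgRosa libraries. Ddx58 (chromosome 4) had 7.81, 19.8 and 9.02 CPM in sgNr2f2, against 25.6, 8.93, 9.73 and 5.04 CPM in sgRosa. For both, sgNr2f2 replicate 2 and sgRosa replicate 1 were the high libraries and sgRosa replicate 4 the lowest, and the groups overlapped.

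The signalling genes code for Stat2 and Irf9, which belong to the ISRE-binding complex, for Irf7, which amplifies interferon production, and for Usp18, which removes ISG15 from proteins and restrains the receptor. Stat2 (chromosome 10, 128270498 to 128292853) had 26.3, 64.1 and 32.0 CPM in sgNr2f2 libraries, against 29.4, 19.1, 25.3 and 11 CPM in sgRosa libraries. The sgNr2f2 values reached higher, but replicate 1 of sgNr2f2 lay below replicate 1 of sgRosa. Stat2 averaged 40.8 ± 20.4 CPM in sgNr2f2 (SD, n = 3) and 21.2 ± 7.99 CPM in sgRosa (SD, n = 4), a log2 fold change of 0.94 (SE 0.47) with the smallest unadjusted p of all members in edgeR, 0.0734, and an adjusted p of 0.868. Without sgNr2f2 replicate 2, which held the highest value, the log2 fold change was 0.46. Irf9 had 23.2, 55.4 and 31.2 CPM in sgNr2f2, against 50.8, 24, 30.3 and 7.63 CPM in sgRosa. Irf7 had 24, 51.1 and 32.5 CPM in sgNr2f2, against 32.9, 12.9, 22.1 and 74.5 CPM in sgRosa. Its highest library was the one in which Stat2 and Irf9 were lowest, sgRosa replicate 4. Usp18 lay between 16.6 and 30.2 CPM in sgNr2f2 and between 14.8 and 45 CPM in sgRosa libraries.

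The IFIT proteins bind viral RNA and block its translation. Ifit1 (chromosome 19, 34640889 to 34650009) had 23.7, 46.6 and 22.7 CPM in sgNr2f2 libraries, against 97.0, 28.4, 34.9 and 4.63 CPM in sgRosa libraries. The sgRosa libraries held both the highest and the lowest value and enclosed the sgNr2f2 range. Its log2 fold change of -0.41 (SE 0.77) had an adjusted p of 0.951 in edgeR, and was 0.45 without sgRosa replicate 1. Ifit2 had 31.5, 21 and 26 CPM in sgNr2f2, against 35.8, 31.8, 38.5 and 4.36 CPM in sgRosa. Ifit3 had 24.2, 26.6 and 19.4 CPM in sgNr2f2, against 38.0, 11.9, 18.9 and 25.5 CPM in sgRosa. Ifit2 was lower in all 3 sgNr2f2 libraries than in sgRosa replicates 1 to 3, and higher than in sgRosa replicate 4. Ifit3b, the near-identical neighbour of Ifit3, lay between 5.15 and 12.9 CPM in sgNr2f2 and between 2.86 and 13.2 CPM in sgRosa. Reads of such copies can be exchanged in counting, so the split between Ifit3 and Ifit3b is uncertain.

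**Figure D2:**
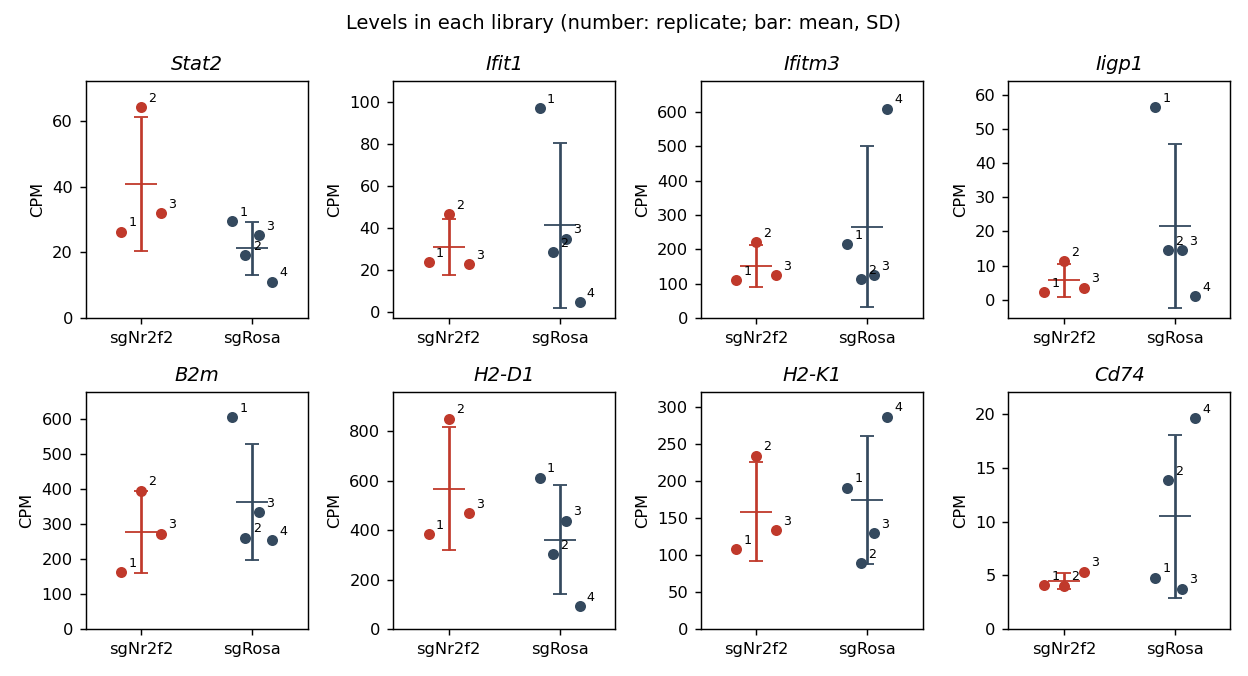
CPM of 8 of the genes in each library on linear axes, with sgNr2f2 at the left and sgRosa at the right of each panel; the number beside a point is the replicate, the long bar the mean and the whisker 1 SD (n = 3 and n = 4), which can reach below 0. The groups overlap in every panel, and sgRosa replicate 4 is the highest library for Ifitm3, H2-K1 and Cd74 and the lowest for Stat2, Ifit1, Iigp1 and H2-D1.

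Among the other type I effectors, Ifitm3, a membrane protein that blocks virus entry, had the highest level per kilobase. It had 110, 221 and 124 CPM in sgNr2f2 libraries, against 215, 113, 125 and 609 CPM in sgRosa libraries. Ifitm3 averaged 152 ± 60.5 CPM in sgNr2f2 (SD, n = 3) and 265 ± 234 CPM in sgRosa (SD, n = 4), where replicate 4 was the highest library. The log2 fold change was -0.80 (SE 0.67, adjusted p = 0.890 in edgeR), and 0.01 without that library. Ifi27, a mitochondrial and nuclear envelope protein, had 44.2, 71.6 and 56.8 CPM in sgNr2f2, against 61.1, 42.5, 39.9 and 258.1 CPM in sgRosa. Its log2 fold change was -0.80 (SE 0.69), and 0.27 without sgRosa replicate 4. Oas1a, which makes the oligoadenylates that activate RNase L, showed the same picture, with 6.78, 7.79 and 5.57 CPM in sgNr2f2, against 8.63, 3.95, 3.95 and 47.6 CPM in sgRosa. The log2 fold change of Oas1a was -1.24 (SE 0.85), and 0.28 without that library. For these genes 1 sgRosa library set the sign of the difference.

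Rtp4, a chaperone-like protein with antiviral activity, had 19.1, 47.4 and 35.1 CPM in sgNr2f2 libraries, against 65.3, 21.6, 25.3 and 24.4 CPM in sgRosa libraries. Rsad2 (viperin), which makes a chain-terminating nucleotide, had 13.3, 13.3 and 5.39 CPM in sgNr2f2, against 34.2, 11.6, 14.3 and 10.4 CPM in sgRosa. The log2 fold change of Rsad2 was -0.72 (SE 0.54), and -0.18 without sgRosa replicate 1, where it was highest. Ifi27l2a had 0.787, 0.617 and 0.968 CPM in sgNr2f2, against 1.88, 2.06, 0.748 and 4.36 CPM in sgRosa. The log2 fold change of Ifi27l2a was -1.49 (SE 0.75, adjusted p = 0.868 in edgeR), and -0.98 without sgRosa replicate 4. sgRosa replicate 3 lay within the sgNr2f2 range. The coordinates of Ifi27 lie within those of Ifi27l2a on chromosome 12, so reads may be shared between them. Oasl2, Bst2 (tetherin), Xaf1 and Trim30a lay between 10.3 and 37.8 CPM in sgNr2f2 and between 9.26 and 59.4 CPM in sgRosa. Isg15, the ubiquitin-like protein that is a standard marker of this response, lay between 0.363 and 1.18 CPM in sgNr2f2 and between 0.068 and 0.818 CPM in sgRosa libraries. Mx1 was at 0 in sgNr2f2 replicates 1 and 3 and in sgRosa replicates 1 and 3, and at most 0.392 CPM elsewhere. The chemokine Cxcl10, which recruits T cells, had 0, 0.505 and 0.968 CPM in sgNr2f2, against 1.36, 0.541, 0 and 0.273 CPM in sgRosa. A total of 3 counts corresponds to 0.168 to 0.182 CPM in the sgNr2f2 libraries and 0.141 to 0.409 CPM in the sgRosa libraries, which limits what can be read from these low genes.

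The interferon-inducible GTPases attack the vacuoles of intracellular pathogens. Gbp3 had 44.4, 99.3 and 41.9 CPM in sgNr2f2 libraries, against 117, 41.2, 65.9 and 8.45 CPM in sgRosa libraries. Gbp2 had 36.5, 53.6 and 28.6 CPM in sgNr2f2, against 80.1, 29.3, 38.3 and 14.2 CPM in sgRosa. Igtp had 21.9, 41.1 and 26.4 CPM in sgNr2f2, against 50.6, 15.1, 27.1 and 34.1 CPM in sgRosa. In all 3 genes sgRosa replicate 1 was the highest library and sgNr2f2 replicate 2 the second highest. Iigp1, a GTPase of the same class named here after its values were seen, had the largest absolute log2 fold change of the tested members. It had 2.24, 11.2 and 3.57 CPM in sgNr2f2, against 56.3, 14.6, 14.4 and 0.954 CPM in sgRosa. The sgNr2f2 values lay below sgRosa replicates 1 to 3 and above sgRosa replicate 4. With all libraries the log2 fold change was -1.93 (SE 1.03, adjusted p = 0.868 in edgeR).

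Leaving out sgRosa replicate 4 made Iigp1 the 1 member with an unadjusted p under 0.05, of 41 tested (2.44%) against 11.3% of all genes in that fit. Its log2 fold change was then -2.32 (SE 0.71), with an unadjusted edgeR p of 0.00965 that does not survive adjustment (adjusted p = 0.281). DESeq2 on the same 6 libraries gave -2.28 with an adjusted p of 0.0416, among 372 of 14086 genes called (2.64%), and limma-voom an adjusted p of 0.330. Ifit2 and Iigp1 were then the 2 members with lower sgNr2f2 values and no overlap (4.88%), against 8.93% of all genes that were lower without overlap. Without sgRosa replicate 1, the highest library, the log2 fold change of Iigp1 was -0.82.

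MHC class I molecules present peptides to CD8 T cells, and all 6 were detected. B2m (chromosome 2, 122147687 to 122153082), the light chain of all class I complexes, had 162, 395 and 272 CPM in sgNr2f2 libraries, against 605, 260, 333 and 253 CPM in sgRosa libraries. H2-D1 (chromosome 17, 35263094 to 35267497), a classical heavy chain, had 384, 851 and 468 CPM in sgNr2f2, against 613, 303, 437 and 91.6 CPM in sgRosa. H2-K1, the other classical heavy chain, had 108, 234 and 134 CPM in sgNr2f2, against 191, 88.5, 130 and 287 CPM in sgRosa. Replicate 2 was the highest sgNr2f2 library for all 3 genes, while in sgRosa replicate 4 H2-K1 was high and H2-D1 low. The log2 fold changes were -0.39 for B2m (SE 0.53), 0.65 for H2-D1 (SE 0.64) and -0.13 for H2-K1 (SE 0.53), with edgeR adjusted p of 0.929, 0.904 and 0.976. Without sgRosa replicate 4 those of H2-D1 and H2-K1 were 0.33 and 0.22. Of the other class I genes, H2-T22 lay between 12 and 17.4 CPM in sgNr2f2 and between 1.36 and 19.3 CPM in sgRosa. H2-T23, which codes for Qa-1, lay between 3.63 and 13.9 CPM in sgNr2f2 and between 8.99 and 14.7 CPM in sgRosa. H2-Q4 had 1.88, 3.92 and 1.15 CPM in sgNr2f2, against 1.27, 0.487, 1.90 and 0.545 CPM in sgRosa, and a log2 fold change of 1.12 (SE 0.74, adjusted p = 0.868 in edgeR). Without sgNr2f2 replicate 2 that of H2-Q4 was 0.51. The class I genes are close in sequence, and the handling of reads that fit several of them is not given in the sources used here.

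The genes of class I peptide supply were all detected. Tapbp (tapasin), which loads peptide, had 126, 236 and 124 CPM in sgNr2f2 libraries, against 194, 102, 122 and 98.0 CPM in sgRosa libraries. Tap2, a subunit of the peptide transporter, had 28.2, 63.3 and 45.4 CPM in sgNr2f2, against 63.9, 35.3, 41.8 and 3.68 CPM in sgRosa. Psmb10, an immunoproteasome subunit, had 19.1, 35.0 and 24.3 CPM in sgNr2f2, against 34.2, 26.1, 26.1 and 96.9 CPM in sgRosa. In sgRosa replicate 4 Tap2 was the lowest and Psmb10 the highest of the 7 libraries. The log2 fold change of Psmb10 was -0.81 (SE 0.55), and -0.14 without that library. The immunoproteasome subunits Psmb8 and Psmb9, the transporter subunit Tap1 and the class I transactivator Nlrc5 lay between 1.94 and 46.1 CPM in sgNr2f2 and between 0.818 and 46.8 CPM in sgRosa.

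MHC class II genes were low, and Cd74 was the member of this group that was best detected. Cd74, the invariant chain, had 4.06, 4.04 and 5.33 CPM in sgNr2f2 libraries, against 4.78, 13.9, 3.74 and 19.6 CPM in sgRosa libraries. H2-Ab1 had 3.51, 0.0561 and 1.94 CPM in sgNr2f2, against 1.31, 4.17, 1.43 and 6.95 CPM in sgRosa. H2-Aa had 0, 1.40 and 0.303 CPM in sgNr2f2, against 1.36, 3.68, 0.408 and 0.136 CPM in sgRosa. sgRosa replicate 2 was high for all 3 genes and sgRosa replicate 4 for Cd74 and H2-Ab1, while sgRosa replicates 1 and 3 lay within or just below the sgNr2f2 values. H2-Eb1 did not exceed 0.726 CPM in sgNr2f2 or 1.90 CPM in sgRosa, and the class II transactivator Ciita did not exceed 0.28 CPM in sgNr2f2 or 0.162 CPM in sgRosa. All 4 tested class II genes had fitted log2 fold changes below 0, with a median of -1.13, and none passed (edgeR adjusted p of 0.868 to 0.912). That of Cd74 was -1.22 (SE 0.62), and -0.74 without sgRosa replicate 4. Without the same library that of H2-Ab1 was -0.33 and the median of the group -0.99. Without sgRosa replicate 2, H2-Aa and H2-Eb1 had too few counts to be tested. Microglial markers summed to 35.1 to 48.2 CPM in sgNr2f2 and 27.0 to 54.5 CPM in sgRosa libraries, with the highest sum in sgRosa replicate 2 and the lowest in sgRosa replicate 4, and border macrophage markers to 1.79 to 3.88 CPM in sgNr2f2 and 2.52 to 5.79 CPM in sgRosa. Of these lists, 8 of 15 microglial and 1 of 6 border macrophage markers averaged at least 1 CPM. Both sums and Cd74 were high in sgRosa replicate 2. Of 6 dendritic cell markers 2 averaged at least 1 CPM, Zbtb46 and Flt3. The sum of the 6 was 35.1 to 103.3 CPM in sgNr2f2 and 9.27 to 32.7 CPM in sgRosa libraries, lowest in sgRosa replicate 4. Zbtb46 made up most of it, at 35.0 to 100.6 CPM in sgNr2f2 and 7.77 to 29.3 CPM in sgRosa. Flt3 lay between 0.121 and 1.51 CPM in sgNr2f2 and between 0.818 and 1.64 CPM in sgRosa. The groups overlapped for Flt3, so the gap in the sum rests on Zbtb46. Cd74 was highest in sgRosa replicate 4. There 4 B cell markers summed to 4.22 CPM and 7 T and NK cell markers to 35.8 CPM. The other libraries held at most 1.52 and 17.3 CPM. None of the B cell markers and 4 of the T and NK cell markers averaged at least 1 CPM. The part of these cells in the class II levels was not tested.

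**Figure D3:**
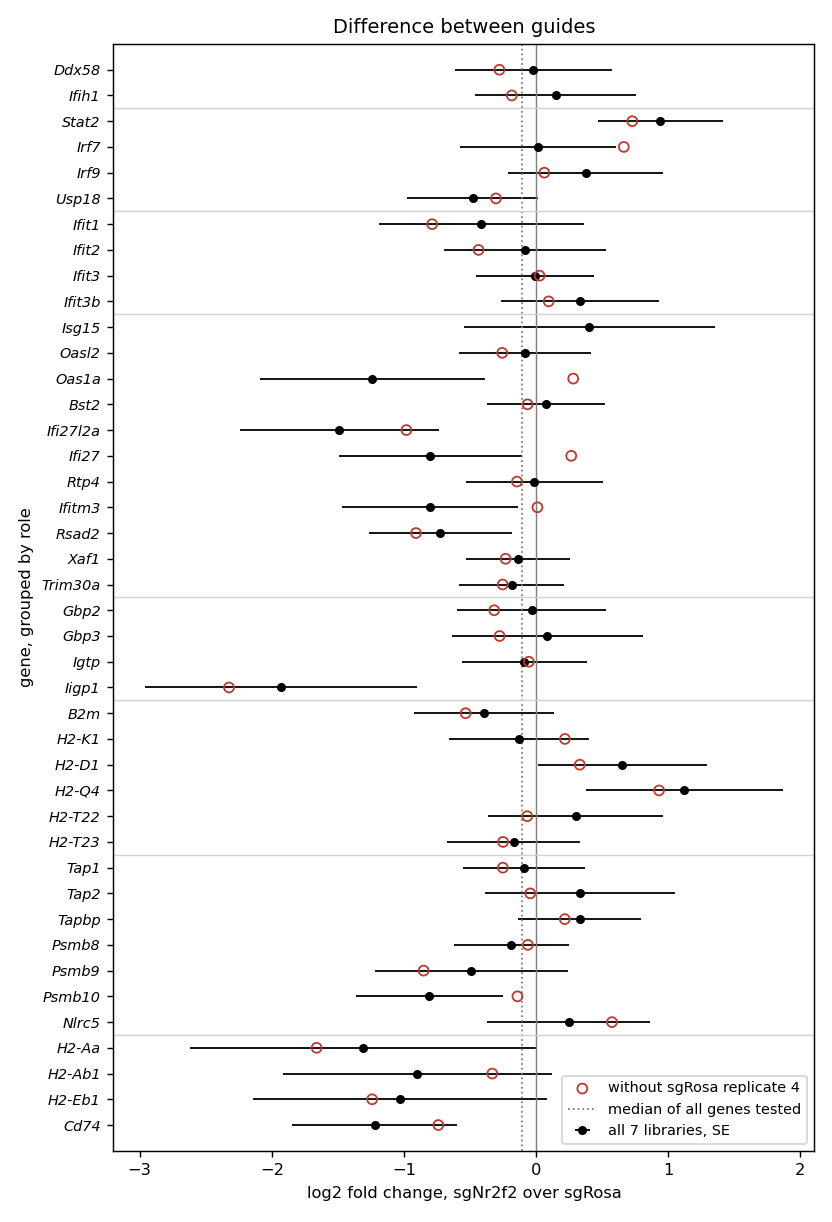
Log2 fold change of sgNr2f2 over sgRosa for the 42 tested genes (rows, grouped by role). Filled points with bars are edgeR estimates from all 7 libraries with 1 SE, open circles the estimates without sgRosa replicate 4 for the 41 members tested there, and the dotted line the median of all genes tested (-0.11). Most bars cross 0, and the circles of Oas1a, Ifi27, Psmb10 and H2-D1 lie nearer to 0 than their points.

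Per kilobase of exonic length over the 7 libraries, B2m was the most abundant of the 45 genes, at 379 CPM per kb. Ifitm3 followed with 320 and H2-D1 with 174 CPM per kb, and then H2-K1 with 57.0, Ifi27 with 55.9, Tapbp with 39.5, Bst2 with 23 and Psmb10 with 21.9 CPM per kb. H2-K1 and Ifi27 did not differ in this order beyond their spread between libraries, nor did Bst2 and Psmb10. Without sgRosa replicate 4, Tapbp with 41.6 CPM per kb stood above Ifi27 with 35.9, and Gbp3 with 20.9 stood above Psmb10 with 16.1 CPM per kb. Ifitm3 was then at 223 CPM per kb, between B2m with 393 and H2-D1 with 198. Ciita stood last over all libraries with 0.0094 CPM per kb. H2-D1, B2m, Ifitm3 and H2-K1 together made up 52.5% to 57.2% of the summed CPM of the 45 genes in each of the 7 libraries.

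Apart from sgRosa replicate 4 and the MHC class II genes, most members were high in the same libraries. Their summed level was 1457, 2973 and 1778 CPM in sgNr2f2 replicates 1 to 3, against 3077, 1439, 1841 and 2184 CPM in sgRosa replicates 1 to 4, and the means were 2069 ± 799 CPM in sgNr2f2 (SD, n = 3) and 2135 ± 697 CPM in sgRosa (SD, n = 4). sgNr2f2 replicate 2 held the highest value of 7 members and sgRosa replicate 1 that of 23, whereas sgNr2f2 replicates 1 and 3 held none. sgRosa replicate 4 held the highest value of 9 members and the lowest of 17. Within sgNr2f2 the summed level was highest in replicate 2, and within sgRosa in replicate 1. The summed CPM of 10 endothelial markers, among them Cldn5, Flt1, Slco1a4 and Itm2a, moved with the member sum. All 10 averaged at least 1 CPM. It was 3401, 8087 and 3927 CPM in the sgNr2f2 libraries, against 7518, 3243, 4520 and 5666 CPM in the sgRosa libraries. The ratio of the member sum to the endothelial sum was 0.428, 0.368 and 0.453 in sgNr2f2, against 0.409, 0.444, 0.407 and 0.385 in sgRosa. The ratio ranged 1.23-fold, while the member sum ranged 2.14-fold.

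Of the 15 cell type marker lists, the endothelial list gave the narrowest ratio. Over all 7 libraries the microglial list came next, with a 3.9-fold range. Several lists were near the floor, such as monocyte and neutrophil markers with sums of 0.544 to 2.59 CPM, so this rank is a weak comparison. Over the 6 libraries other than sgRosa replicate 4 the neuron list came next. Its 2.7-fold range was wider than the 2.14-fold range of the member sum itself. In these 6 libraries, 33 of the 40 members with counts in all 6 had a narrower range per endothelial CPM than per library (82.5%), against 21.8% of the 13627 genes tested that had counts in all 6, and the median range of the members was 1.85-fold instead of 2.94-fold. Any gene that is high in the same libraries as the endothelial markers narrows in this way. The share was computed only for the endothelial list, which already had the narrowest ratio to the member sum in these libraries. It is thus no separate support for that ratio. The 7 exceptions were Ifit2, Oas1a, Ifi27l2a, H2-T22, Psmb10, H2-Ab1 and Cd74. By role, the ratio of the MHC class I molecules lay between 0.187 and 0.23 in the sgNr2f2 libraries and between 0.192 and 0.208 in sgRosa replicates 1 to 3, with 0.113 in sgRosa replicate 4. In sgRosa replicate 4 the ratio of the other type I effectors was 0.18, against 0.0585 to 0.0807 in the other libraries. Those of the GTPases and the RNA sensors were 0.0102 and 0.0019 there, against 0.0254 to 0.0405 and 0.00778 to 0.00985 in the other libraries. The overall ratio of 0.385 in that library is thus the sum of role groups above and below the rest. The class II ratio ranged 9.36-fold over the 6 other libraries. Sums in 1 library share its depth and its other RNA, and the part of endothelial RNA in the member levels was not tested.

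**Figure D4:**
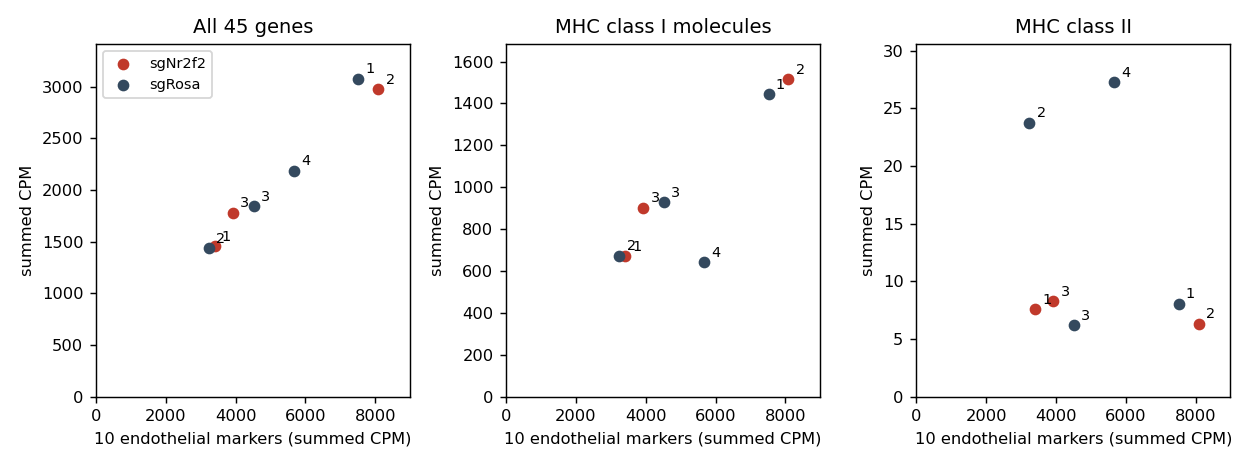
Summed CPM of all 45 genes, of the 6 MHC class I molecules and of the 5 MHC class II genes (vertical axes) against the summed CPM of 10 endothelial markers (horizontal axis), 1 point per library with its replicate number. The sums of all genes and of class I lie near a line through 0 apart from the class I sum of sgRosa replicate 4, and the class II sums do not.

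In sgRosa replicate 4 the members split. Compared with the median of the other sgRosa libraries, 11 of 42 members (26.2%) were over 2-fold higher and 13 (31.0%) over 2-fold lower, beside 25.3% and 31.5% of all genes tested. The higher ones were Oas1a, Ifi27, Ifitm3, H2-Ab1, Cd74, Psmb10, Irf7, Nlrc5, H2-K1, Usp18 and Ifi27l2a. Their median exonic length was 1885 bp, against 2742.5 bp for the 18 members within 2-fold and 3781 bp for the 13 lower ones. Over all genes tested the lengths were 3542, 4725.5 and 4930 bp in the same order. The endothelial markers split as well, with Cldn5, Ly6c1 and Esam highest and Pecam1, Cdh5, Tek, Slco1a4 and Itm2a lowest in that library. The part of RNA length or quality in this split was not tested.

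Of 89 further genes of the same pathways, 73 were tested and none passed in edgeR, with 30 fitted log2 fold changes above 0 and 43 below. None of the 7 interferon genes had enough counts for a test. Ifnb1, which codes for interferon beta, had 0 counts in all 7 libraries, and Ifng did not exceed 0.182 CPM in sgNr2f2 or 0.379 CPM in sgRosa. Receptor genes were expressed: Ifnar1 had 61.6, 98.9 and 40.1 CPM in sgNr2f2 libraries, against 197, 71.2, 66.5 and 12 CPM in sgRosa libraries. Ifnar2 had 21.3, 51.9 and 30.02 CPM in sgNr2f2, against 85.1, 33.0, 42.8 and 234.5 CPM in sgRosa. Both receptor chains were high in sgRosa replicate 1, and sgRosa replicate 4 was lowest for Ifnar1 and highest for Ifnar2. The log2 fold change of Ifnar2 was -1.52 (SE 0.71, adjusted p = 0.868 in edgeR), and -0.64 without that library. Ifngr1, a chain of the interferon gamma receptor, lay between 24.8 and 58.0 CPM in sgNr2f2 and between 13.5 and 51.7 CPM in sgRosa.

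Irf1, which acts downstream of interferon gamma, lay between 15.5 and 22.3 CPM in sgNr2f2 and between 5.04 and 39.1 CPM in sgRosa. It followed the pattern of many members, with sgRosa replicate 1 highest and sgRosa replicate 4 lowest. Tlr9, the endosomal sensor of unmethylated DNA that has been linked to AAV recognition, was at 0 in 6 libraries and at 0.0541 CPM in sgRosa replicate 2. Of 73 further genes tested, 2 (2.74%) had an unadjusted edgeR p under 0.05, against 5% of all genes. They were Irf5, a factor acting below Toll-like receptors, and Ticam1 (TRIF), the adaptor of TLR3. Irf5 had 5.69, 24 and 11.2 CPM in sgNr2f2, against 6.98, 3.36, 4.83 and 0.954 CPM in sgRosa, a log2 fold change of 1.74 (SE 0.67), and 1.05 without sgNr2f2 replicate 2. Ticam1 had 3.51, 8.91 and 9.14 CPM in sgNr2f2, against 2.86, 3.25, 3.33 and 2.45 CPM in sgRosa, a log2 fold change of 1.27 (SE 0.48). Both had an adjusted p of 0.868 in edgeR. Ticam1 and Oas2, an oligoadenylate synthetase, were the further genes tested that were higher without overlap (2.74%), against 4.41% of all genes tested, and none was lower without overlap. Oas2 had 3.33, 2.30 and 3.27 CPM in sgNr2f2, against 2.20, 0.108, 1.56 and 0.954 CPM in sgRosa, a log2 fold change of 1.28 (SE 0.81). Trim21, an antibody receptor in the cytosol, and Ifi30, a lysosomal thiol reductase, were lower without overlap but had too few counts for a test. The share of untested genes without overlap was not computed, so no difference is read from them. Trim21 was at 0 in all sgNr2f2 libraries and between 0.271 and 0.818 CPM in sgRosa. Ifi30 did not exceed 0.0606 CPM in sgNr2f2 and lay between 0.136 and 0.487 CPM in sgRosa. Its highest sgNr2f2 value and its lowest sgRosa value, in replicate 4, were 1 count each, so its order rests on library depth.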

How the data were processed

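RNA-seq counts of 7 libraries were analysed. Raw counts, as whole numbers for each gene symbol, were deposited by the authors for every library and again as 1 table of the series; the 7 single files equalled that table. Tools in the submitters' processing notes are STAR 2.7.5c, featureCounts 2.0.1, fastp 0.23.2, MultiQC 1.11, FastQC 0.11.9 and edgeR 3.42.4, with the mm10 build. Which annotation, strand setting and multi-mapping rule were used is not given in the sources used here. No molecular identifiers are named, so intervals and floors based on counts cover counting error only.

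Counts were tested over the whole table with edgeR 4.0.16 (quasi-likelihood F test, run in R 4.3.3), using TMM factors, its filter on low counts, the guide as the only term and Benjamini-Hochberg adjustment at 0.05. DESeq2 1.42.0, limma-voom (limma 3.58.1), other scalings and filters, a replicate block and leaving out each library were alternatives. Exonic lengths are unions of exons in GENCODE (GRCm38) and coordinates and promoters are from RefSeq GRCm38.p6.

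The genes and lists were chosen with earlier results of these data known. Values in every library are given for the 3 members of highest mean CPM in each role group and for Irf1, Ifnar1, Ifnar2, Ifngr1, Ifnb1, Ifng and Tlr9. They are also given for genes with an unadjusted p under 0.05 in edgeR or groups that do not overlap, and some are given as ranges. Fold changes of members are printed where they exceed their SE, and for B2m, H2-K1 and Ifit1, and of further genes only for Ifnar2, Irf5, Ticam1 and Oas2, choices made after the values were seen; H2-Q4, Rsad2, Ifi27l2a, Oas1a and Iigp1 were named for that reason.

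In counts simulated from these libraries, with 13980 genes tested, the edgeR fit called 0% of the 2-fold, 4.76% of the 4-fold and 41.7% of the 8-fold changes put in, with 1 false call.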

Additional observations from a re-analysis of the deposited data

Results flagged for a closer look

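In 7 cases 1 sgRosa library lay far from the other 3, with a gap to its neighbour above the critical value of Dixon's test for 4 samples at the 95% level. These are 7 of 42 tested members (16.7%), against 18.6% of all 14412 genes tested in the same libraries. Chance flags about 1 in 20 groups. Groups of 3, such as sgNr2f2, were not tested in this way. In sgRosa replicate 4, Oas1a was at 47.6 CPM against 3.95 to 8.63 CPM in the other sgRosa libraries, Ifi27 at 258.1 CPM against 39.9 to 61.1 CPM, and Psmb10 at 96.9 CPM against 26.1 to 34.2 CPM. In sgRosa replicate 1, Oasl2 was at 59.4 CPM against 18.7 to 21.2 CPM, Rtp4 at 65.3 CPM against 21.6 to 25.3 CPM, and Rsad2 at 34.2 CPM against 10.4 to 14.3 CPM. In sgRosa replicate 2, H2-Eb1 was at 1.90 CPM against 0.409 to 0.612 CPM.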

How the results depend on the processing

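No member passed the adjusted threshold in any of the fits run except Iigp1 in DESeq2 without sgRosa replicate 4, and edgeR and limma-voom called no gene in any fit. DESeq2 on all libraries called 2 genes higher and 5 lower, and without sgRosa replicate 4 it called 256 higher and 116 lower, with 1 member lower. Over the edgeR fits that left out 1 library each, the members' median log2 fold change ranged from -0.34 (sgNr2f2 replicate 2 left out) to 0.18 (sgRosa replicate 1 left out). Library totals alone moved the median of all genes to -0.33 and that of the members to -0.38, and upper-quartile factors gave -0.19 and -0.17. Signs reversed in 61 of 459 member values under the other alternatives and in 53 of 289 with 1 library left out. Ifit1 was at 0.13 in limma-voom. With limma-voom quality weights, Oas1a was at 0.45, Ifi27 at 0.31 and H2-K1 at 0.20. In DESeq2 without sgRosa replicate 4, Oas1a was at 0.31, Ifi27 at 0.30, Ifitm3 at 0.047 and H2-K1 at 0.25, and in limma-voom without it at 0.33, 0.27, 0.0105 and 0.21. With 1 library left out in edgeR, Oas1a ranged from -1.56 to 0.28, Ifi27 from -1.04 to 0.27, Ifitm3 from -1.17 to 0.0101, H2-K1 from -0.52 to 0.22 and Ifit1 from -0.83 to 0.45. Deviations of same-numbered libraries correlated at -0.23, -0.30 and 0.12, and those of differently numbered ones at -0.15 to 0.29. So few correlations cannot tell whether the numbers pair the libraries, and the labels state no pairing. With the replicate block no gene passed and 913 genes instead of 721 had an unadjusted edgeR p under 0.05. Oas1a was then at 0.37, Ifi27 at 0.27, Ifitm3 at 0.0011 and H2-K1 at 0.20. In this fit sgRosa replicate 4 is the only library with its number. That library therefore adds nothing to the guide difference, and these values are no separate check on the fits without it. The cause of these reversals was not tested, and 3 against 4 libraries of this spread seldom allow a call below 8-fold.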
